A study of Mus musculus with 4 samples.

Results

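Heparan sulfate proteoglycans are proteins that carry long sulfated sugar chains. Of the 29875 gene names on the array, 34 made up the set described here: the core proteins that carry the chains, the enzymes that build and sulfate them, and the enzymes that edit them. The members were taken by gene name from the non-control probes of 4 scanner files, which gave 48 probes for the 34 genes. For 28 of the 34 genes at least 1 probe lay well above background, and 19365 genes in all were measured by that rule. The study compared ureters taken at E14.5 (days of embryonic development) from mice of strain NMRI. Mutants, called cDKO (conditional double knockout), had 1 cre allele at Tbx18 (cre/+) and were homozygous for floxed alleles of the FGF receptor genes Fgfr1 (fl/fl) and Fgfr2 (fl/fl). Controls are given as fl/? at Fgfr1 and at Fgfr2, so that floxed receptor alleles were present in both groups and the second allele of a control is not stated. No cre allele is listed for the controls, so the cre-bearing Tbx18 allele and the loss of the receptors cannot be told apart. The Tbx18 promoter drives cre in mesenchymal cells around the ureter, whereas the RNA came from whole ureters, which also hold urothelium, vessels and blood. Every one of the 4 arrays compared 1 cDKO extract with 1 control extract in its 2 colours; cDKO RNA was labelled with Cy5 on replicates 1 and 3 and with Cy3 on replicates 2 and 4. The paired extracts had equal sex labels, female on replicates 1 and 4 and male on replicates 2 and 3. How many embryos stand behind an extract is not stated, so differences between these 4 pairs may be technical. The p-values rest on those differences and on a variance borrowed from all genes. They measure no spread over a known number of animals.

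Fibroblast growth factors (FGFs) bind their receptors together with heparan sulfate, which acts as a co-receptor on the cell surface and as a store of ligand in the matrix. The chain is polymerised on a core protein in the Golgi, then deacetylated and N-sulfated, epimerised, and sulfated at the 2-O, 6-O and 3-O positions; the pattern of sulfate groups sets which proteins the chain binds. After export, extracellular sulfatases remove 6-O-sulfate groups and heparanase cuts the chain. In the developing urinary tract, heparan sulfate is best known for its part in branching of the ureteric bud. The comparison asks whether transcripts of this co-receptor system differ between ureters with and without the receptor deletion.

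The measurements rest on 60-base probes, and those of 3 members are shown, 1 because it was called and 2 because the value depends on which probe is taken. The first 30 bases of each 60-base probe follow, 5′ to 3′ as the scanner files give them, with the strand of the target in mm9; no gene annotation of that build was used, so their place in exons or untranslated regions is not given. Hs3st6, the only called member, was read by 1 probe, whereas Agrn and Hpse were each read by 2, of which the first listed is the brighter.
Hs3st6, chr17:24895569-24895628, + strand: atgtctgtctgctggctcactgcagtattt
Agrn, chr4:155539415-155539474, - strand: gctgcatggtatcttgttactaactcagta
Agrn, chr4:155546878-155546937, - strand: ctacgggaactggggcctggcaaattagtc
Hpse, chr5:101108565-101108624, - strand: ccactgaatttagtacattgatgaagctag
Hpse, chr5:101114085-101114144, - strand: ccacgatatcaggaaggagatctaactctg

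Values below are log2 ratios of cDKO over control, given for replicates 1, 2, 3 and 4 in that order. The mean follows, with the standard error (SE, n = 4) and adjusted p of a limma fit with dye and genotype terms. That SE is not the SE of the 4 printed ratios. The dye difference is taken out of it, and the variance of a gene is drawn toward that of all genes. It can look small where arrays disagree: Hs2st1 had an SE of 0.08 and a standard deviation over the 4 arrays of 0.61. The adjusted p is Benjamini-Hochberg adjusted over the 19365 genes. Calls were made where that adjusted p was under 0.05. Channel levels are log2 intensities after scaling between arrays. They are compared between genotypes for 1 probe, or for the sum over a list of markers, never between probes. In these bulk samples, more cells of a type and more RNA per cell cannot be told apart. Over the channels of all arrays, 64.9% to 72.6% of spots were well above background, and no spot was saturated. The brightest Fgfr1 probe gave -0.40 ± 0.10 (adjusted p = 0.117), that of Fgfr2 gave 0.59 ± 0.07 (adjusted p = 0.0356, and 0.104 with a sex term in the fit) and that of Tbx18 gave 0.26 ± 0.08 (adjusted p = 0.164). Where the deleted parts lie is not stated, and probes outside them check nothing about the labels.

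Hs3st6 was the 1 member of 28 that was called, against 0.852% of all genes tested. The same fit gave 10 of 28 members an unadjusted p under 0.05, all with a higher cDKO signal; of all genes, 19.6% had such a p, 11.7% in the higher direction and 7.88% in the lower. The ratio lay above 0 on all 4 arrays for 8 of 28 members (Sdc2, Sdc4, Gpc1, Gpc4, Agrn, Hs3st1, Hs3st6 and Hpse), against 13.4% of all genes. It lay below 0 on all 4 for 0 members, against 11.8% of all genes. Hpse is counted by its brighter probe, while its dimmer probe lay below 0 on all 4 arrays. The mean ratio was above 0 for 20 members and below 0 for 8; it was above 0 for 52.7% of all genes. The median over the 28 members was 0.10, against 0.01 over all genes tested, and it was 0.16, 0.13, 0.07 and 0.08 on replicates 1 to 4. A median of that size describes the list and was not tested.

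**Figure D1:**
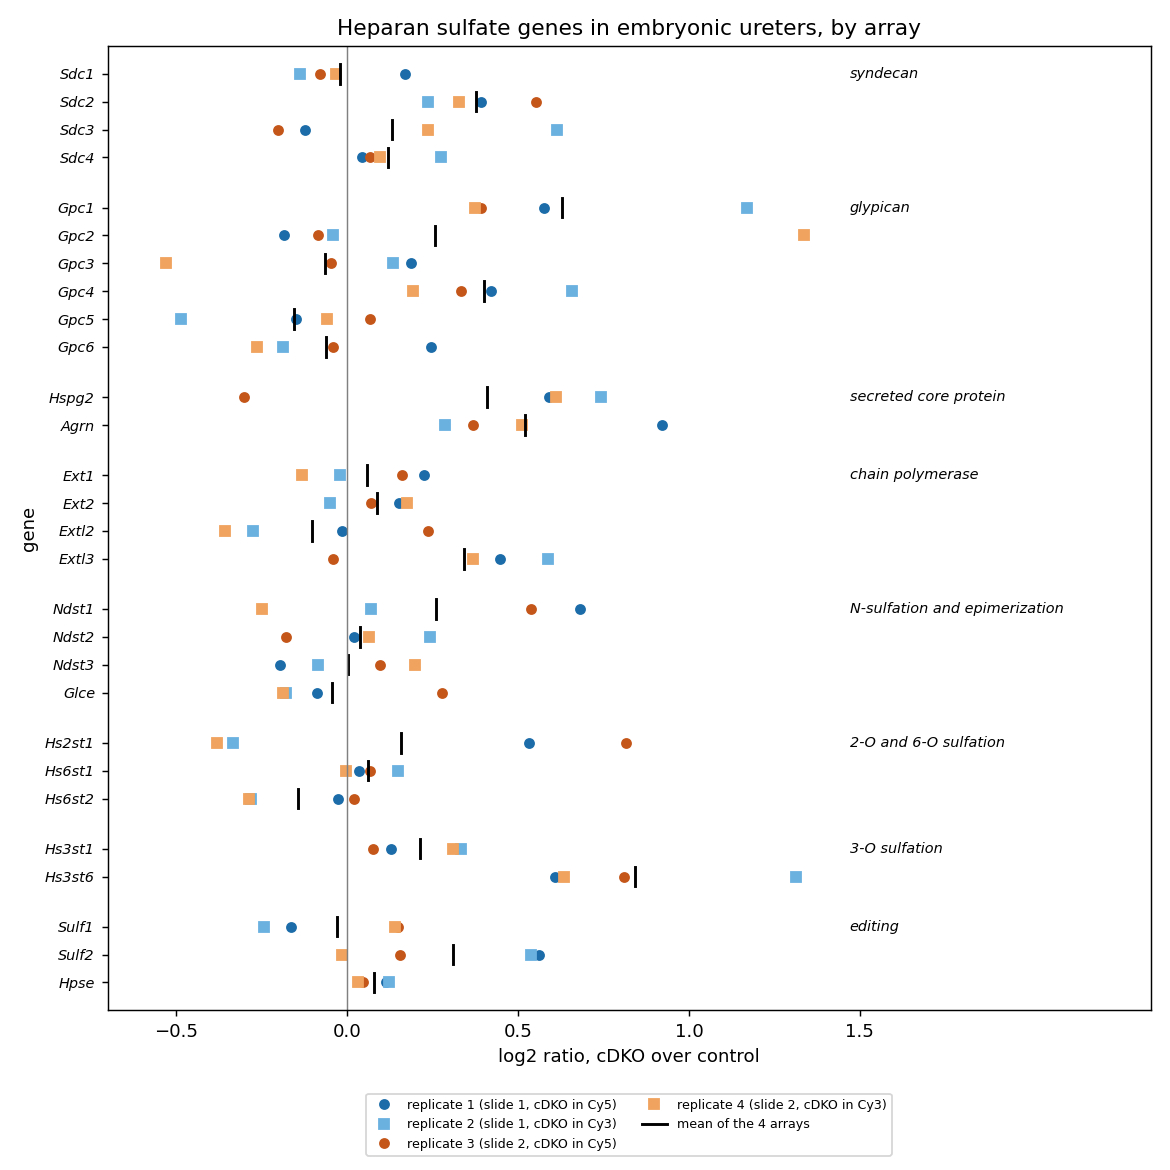
Log2 ratio of cDKO over control (horizontal axis) for each of the 28 measured genes (vertical axis, grouped by role), with 1 point per array and a black bar at the mean of the 4 arrays. Hs3st6 has the highest mean, 0.84; Gpc2 has 1 array at 1.34 and 3 below 0, and Hspg2 has 1 array at -0.30 and 3 above 0.5.

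Among the enzymes that add 3-O-sulfate, the rarest modification of the chain, Hs3st6 rose in the cDKO. Its log2 ratios were 0.61, 1.31, 0.81 and 0.64, with a mean of 0.84 ± 0.12, or 1.79-fold (adjusted p = 0.0455). In the cDKO channels its level was 11.95 to 12.39 and in the control channels 11.08 to 11.42, so the groups did not overlap, and replicate 2 held both the highest cDKO and the lowest control value. The authors' deposited table lists the same probe at signed folds of 1.51, 2.49, 1.79 and 1.51. The adjusted p lay close to the threshold: it was 0.0993 without replicate 1, 0.0607 without replicate 2 and 0.0532 without replicate 3, and 0.0205 without replicate 4. With a sex term in the fit it was 0.0821. Over 4 arrays alone, an exact two-sided sign-flip permutation test cannot go below 0.125. Hs3st1, the other measured member of this class, gave 0.13, 0.33, 0.08 and 0.31, with a mean of 0.21 ± 0.07 (adjusted p = 0.183). All 4 of its ratios were above 0, but its channel levels overlapped. Hs3st2, Hs3st3a1 and Hs3st3b1 were not well above background in either genotype. Hs3st4, a 3-O-sulfotransferase outside the set, gave 0.43, 0.76, 0.73 and 0.05, with a mean of 0.49 ± 0.13 (adjusted p = 0.121).

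The syndecans are transmembrane core proteins that present chains at the cell surface. Sdc2 gave 0.39, 0.24, 0.55 and 0.33, with a mean of 0.38 ± 0.08 (adjusted p = 0.0781), short of the threshold. Its cDKO levels of 13.24 to 13.46 lay above all control levels, 12.68 to 13.06. The other syndecans had means near 0: Sdc1 -0.02 ± 0.08, Sdc3 0.13 ± 0.09 and Sdc4 0.12 ± 0.08, with adjusted p between 0.423 and 0.928. Sdc3 was below 0 where cDKO was in Cy5 (-0.12 and -0.20) and above 0 where it was in Cy3 (0.62 and 0.24).

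Glypicans are anchored to the outer membrane leaflet by a lipid. Of the 6, Gpc1 had the highest mean. It gave 0.57, 1.17, 0.39 and 0.37, with a mean of 0.63 ± 0.13 (1.55-fold, adjusted p = 0.0890). Every cDKO level of Gpc1 (14.78 to 15.27) lay above every control level (14.10 to 14.64), and replicate 2 gave the widest gap. Gpc4 gave 0.42, 0.66, 0.33 and 0.19, with a mean of 0.40 ± 0.10 (adjusted p = 0.109), again without overlap between cDKO (8.48 to 8.86) and control (8.15 to 8.37). Gpc3, the neighbour of Gpc4 on the X chromosome in the RefSeq table, had a mean of -0.06 ± 0.12 and ratios on both sides of 0. Gpc5 gave -0.16 ± 0.10, Gpc6 -0.06 ± 0.08 and Gpc2 0.26 ± 0.20, none of which passed the test. In Gpc2 the mean came from replicate 4, at 1.34, while the other 3 arrays lay between -0.18 and -0.04. Without replicates 1, 2, 3 and 4 in turn, the adjusted p of Gpc1 was 0.279, 0.124, 0.0992 and 0.0221, and that of Gpc4 was 0.444, 0.231, 0.166 and 0.0476, so both passed the threshold in 1 of 4 such fits.

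**Figure D2:**
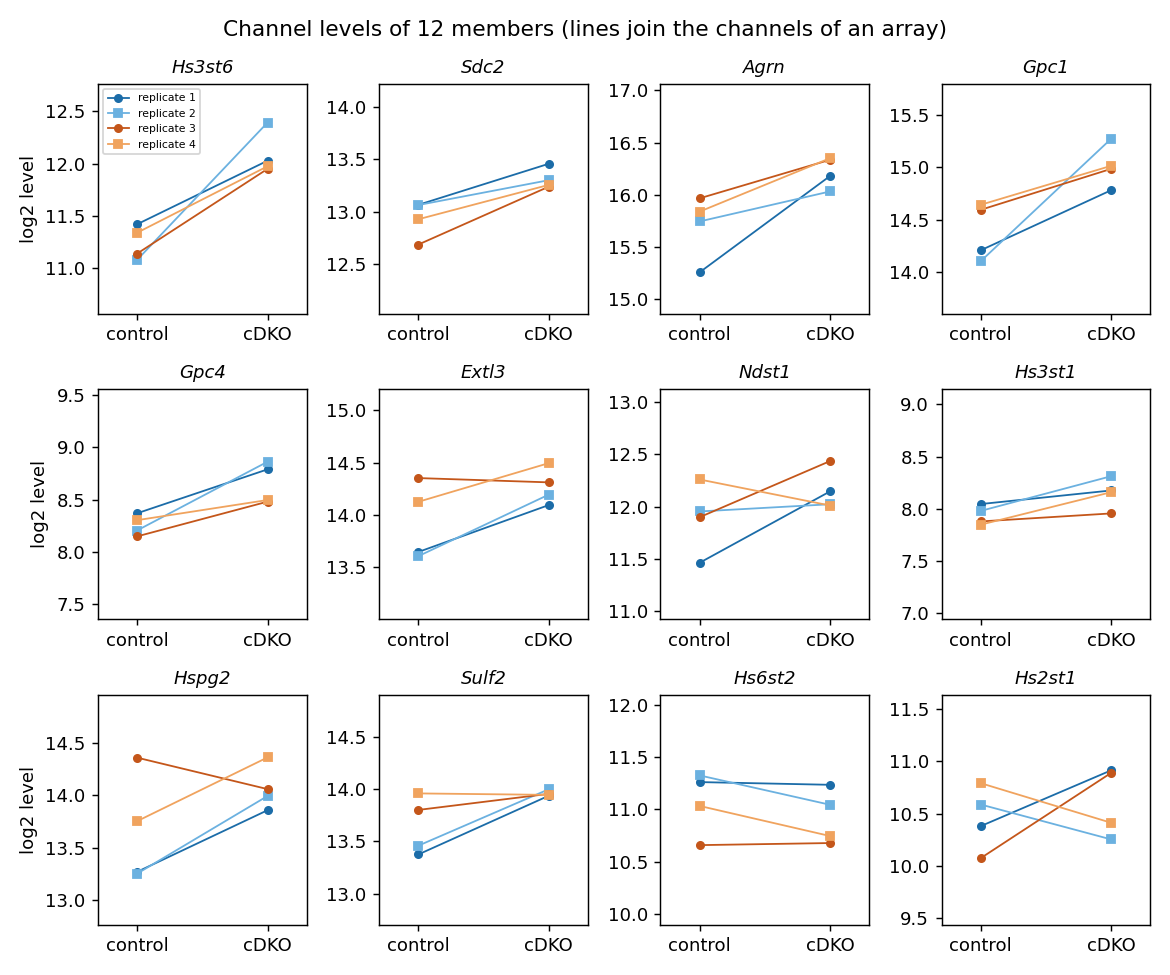
Channel levels (log2 intensity after scaling, vertical axis) in control and cDKO for the 12 members with the smallest p, with 1 line joining the channels of each array; every panel spans the same number of log2 units, and levels are not comparable between panels. In Hs3st6, Sdc2, Agrn, Gpc1 and Gpc4 all cDKO points lie above all control points; in Hs2st1 the lines cross according to the dye.

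Perlecan (Hspg2) and agrin (Agrn) are secreted core proteins of basement membranes. Agrn gave 0.92, 0.29, 0.37 and 0.51, with a mean of 0.52 ± 0.11 (1.44-fold, adjusted p = 0.0863). Its cDKO levels, 16.03 to 16.35, did not overlap with its control levels, 15.26 to 15.97, and the widest gap was on replicate 1, where the control was lowest. Hspg2 gave 0.59, 0.74, -0.30 and 0.61, with a mean of 0.41 ± 0.14 (adjusted p = 0.196). Replicate 3 alone was below 0. Without replicates 1, 2, 3 and 4 in turn, Hspg2 gave 0.19, 0.38, 0.63 and 0.44, with adjusted p of 0.772, 0.368, 0.0462 and 0.192. In the same fits Agrn gave 0.38, 0.58, 0.66 and 0.47, with adjusted p of 0.337, 0.125, 0.0456 and 0.105, so both passed the threshold only without replicate 3. Col18a1, which encodes the basement membrane collagen that also carries heparan sulfate and is no member of the set, gave 0.69, 0.82, 0.29 and 0.54, with a mean of 0.58 ± 0.10 (adjusted p = 0.0587).

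In total, 5 of 28 members had cDKO and control levels that did not overlap, all with the cDKO higher (Sdc2, Gpc1, Gpc4, Agrn and Hs3st6), against 4.70% of all genes in that direction. In the lower direction there were 0 members, against 3.34% of all genes. By role, 4 of these 5 genes encode core proteins and 1 encodes a sulfotransferase. Core proteins among the 28 were 4 syndecans, 6 glypicans and 2 secreted ones. The grouping of the 5 genes by role was seen in the values and was not tested.

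Promoters of the set are described here, and those of the secreted core proteins are printed as examples. Other members had ratios on the same side of 0 as often. The RefSeq promoter table (GRCm38.p6, 250 bases before to 50 after the start) held 30 promoters for 25 of the 34 members and none for Hs3st6, Sdc2 or Gpc1. The GC box GGGCGG, searched on both strands with overlapping matches counted, was present in 21 of 30 member promoters (70%) and in 35.7% of the 32851 promoters in the table. Median GC content differed in the same direction, 66.7% against 52.7%. The upstream Agrn promoter held 12 GC boxes; 7 promoters of the whole table (0.0213%) held as many. The Hspg2 promoter held 5, a number reached by 2.71%. The second Agrn promoter held 2, and that of Hs6st1, whose mean ratio was 0.06, held 7 (0.627%). Hspg2 and Hs6st1 were above 0 on 3 of 4 arrays, Agrn on all 4. Among members other than Agrn above 0 on all 4 arrays, the promoter of Sdc4 held 4 GC boxes. Those of Gpc4 and Hpse held 1 each and that of Hs3st1 0. Whether GC boxes go with the ratios was not tested. The ETS motif CCGGAAGT was present in 1 member promoter (3.89% of all), while the GLI motif GACCACCCA (0.253% of all) and the TCF motif ATCAAAG (3.73% of all) were in none of the 30. A match is a description of letters and no evidence of binding. The upstream Agrn promoter and the Hspg2 promoter are shown 5′ to 3′ on the strand of the gene, with GC boxes of either orientation in capitals.
Agrn, chr4:156197439-156197738, - strand: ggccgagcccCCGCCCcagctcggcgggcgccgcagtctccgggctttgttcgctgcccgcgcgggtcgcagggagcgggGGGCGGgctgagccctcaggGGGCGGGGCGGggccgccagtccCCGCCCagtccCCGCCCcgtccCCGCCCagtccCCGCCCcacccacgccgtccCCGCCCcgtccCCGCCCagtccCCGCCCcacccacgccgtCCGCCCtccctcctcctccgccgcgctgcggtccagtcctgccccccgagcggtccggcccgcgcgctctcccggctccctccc
Hspg2, chr4:137468553-137468852, + strand: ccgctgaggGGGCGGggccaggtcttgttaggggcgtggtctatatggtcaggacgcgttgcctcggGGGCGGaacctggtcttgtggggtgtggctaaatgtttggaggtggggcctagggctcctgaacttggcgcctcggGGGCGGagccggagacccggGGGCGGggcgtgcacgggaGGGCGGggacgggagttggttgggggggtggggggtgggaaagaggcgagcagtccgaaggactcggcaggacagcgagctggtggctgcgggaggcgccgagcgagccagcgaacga

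The polymerases Ext1 and Ext2 form the complex that elongates the chain, and the Extl proteins start or limit it. Neither Ext1 (0.06 ± 0.07) nor Ext2 (0.09 ± 0.08) passed the test, and Extl2 gave -0.10 ± 0.08. Extl3 gave 0.45, 0.59, -0.04 and 0.37, with a mean of 0.34 ± 0.10 (adjusted p = 0.159); replicate 3 was the 1 array below 0, and the mean was 0.22 without replicate 1. Extl1 was above background in 7 of 16 cDKO spots and 4 of 16 control spots and was not measured by the rule.

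N-deacetylase/N-sulfotransferases (Ndst) make the first modification, on which the later ones depend, and Glce epimerises glucuronic acid. Ndst1 gave 0.68, 0.07, 0.54 and -0.25, with a mean of 0.26 ± 0.09 (adjusted p = 0.178); the higher values were the arrays with cDKO in Cy5. Ndst2 (0.04 ± 0.08), Ndst3 (0.00 ± 0.09) and Glce (-0.04 ± 0.09) had means near 0. Ndst4 was not well above background at any of its 3 probes. Of the enzymes for 2-O and 6-O sulfation, Hs2st1 gave 0.53, -0.33, 0.82 and -0.38, with a mean of 0.16 ± 0.08 (adjusted p = 0.333), and 0.09 without replicate 3. Hs6st2 gave -0.03, -0.28, 0.02 and -0.29, with a mean of -0.14 ± 0.07 (adjusted p = 0.321), the 1 member below 0 among the 12 with the smallest p. Hs6st1 gave 0.06 ± 0.07, and Hs6st3 was not well above background.

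Editing of the finished chain is the task of the sulfatases Sulf1 and Sulf2 and of heparanase (Hpse). Sulf2 gave 0.56, 0.54, 0.15 and -0.01, with a mean of 0.31 ± 0.12 (adjusted p = 0.225); the mean was 0.17 without replicate 2. Both high values were on slide 1; its cDKO levels were 13.94 to 14.00 on all arrays, and its control levels ran from 13.38 to 13.96. Sulf1 gave -0.03 ± 0.10 at its brighter probe, with -0.20 on slide 1 and 0.15 on slide 2. Hpse gave 0.08 ± 0.07 at its brighter probe. Over the 16 measured members outside the 12 with the smallest p, means ran from -0.16 to 0.26 and the lowest adjusted p was 0.422.

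Arrays of a slide shared a scan and a scanner, replicates 1 and 2 on slide 1 and replicates 3 and 4 on slide 2. Agreement between arrays was limited. Over all genes tested, the ratios of 2 arrays correlated at 0.01 (replicates 2 and 3) to 0.51 (replicates 1 and 2). Over the 28 members the correlation ran from -0.09 (replicates 3 and 4) to 0.54 (replicates 1 and 2). The median of the members was 0.12 on slide 1 and 0.10 on slide 2. Of the 28 members, 18 had a higher mean ratio on slide 1, and 9 had means of opposite sign on the slides. In a limma fit with a slide term, 7 members (Gpc1, Gpc2, Gpc3, Hspg2, Extl3, Sulf1 and Sulf2) differed between slides at an unadjusted p under 0.05, against 14.3% of all genes. The lowest adjusted p was 0.192, for Sulf2, whose means were 0.55 and 0.07, so that no member was called; of all genes 0.893% were. Hs3st6 gave 0.96 and 0.72 on the slides (adjusted p of the difference = 0.645). With the slide term, which removes slide differences from the error and leaves 1 residual degree of freedom, 9 of 28 members were called, all higher in the cDKO, beside 12.5% of all genes. Within slide 1 alone, 3 members (Gpc1, Hspg2 and Hs3st6) were called by limma, beside 2.85% of all genes. Within slide 2 alone 0 members and 0% of all genes were called, with 4 members and 6.95% of all genes at an unadjusted p under 0.05. Between the sex labels, 0 members differed at an unadjusted p under 0.05, against 1.07% of all genes; with 4 arrays this contrast has the same arrangement as the product of dye and slide, and these cannot be told apart.

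**Figure D3:**
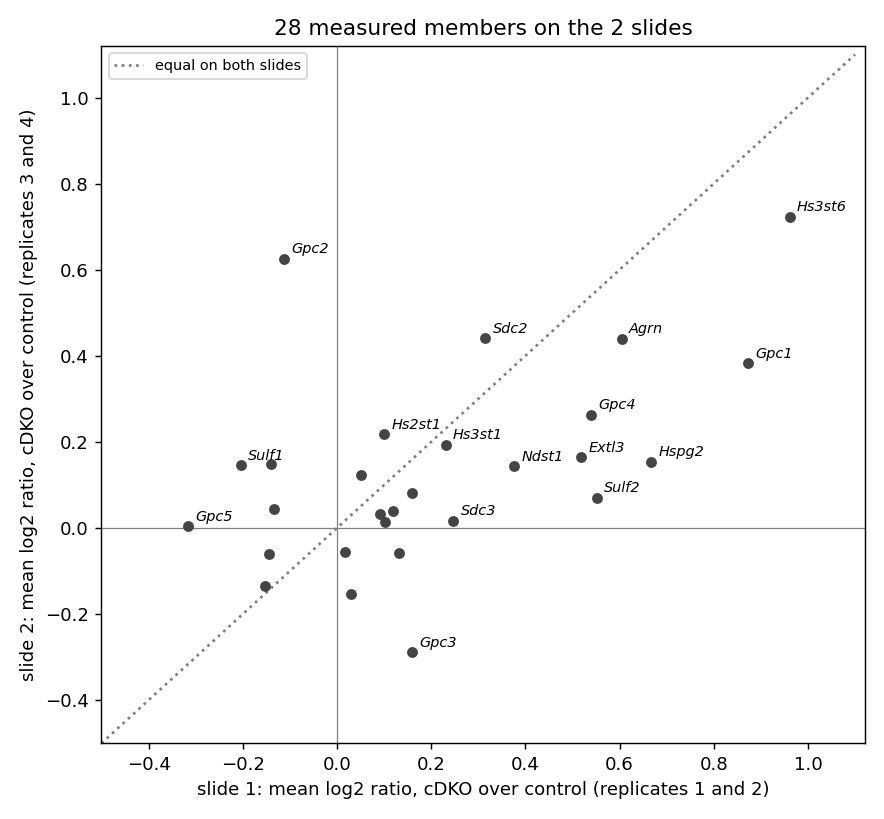
Mean log2 ratio of cDKO over control on slide 1 (horizontal axis) and slide 2 (vertical axis) for the 28 measured members, 1 point per gene; the dotted line marks equal values, and genes beyond 0.2 in size on either slide are named. Hs3st6 lies at 0.96 and 0.72, Sulf2 at 0.55 and 0.07 and Gpc2 at -0.11 and 0.63.

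Some members followed the dye more than the genotype. Hs2st1 had a dye term (log2 red over green) of 0.52 ± 0.08, with an unadjusted p of 0.000506 and an adjusted p of 0.176 in the limma fit over all genes, beside its genotype term of 0.16. For Ndst1 the dye term was 0.35 ± 0.09 (adjusted p = 0.396). An unadjusted p under 0.05 for the dye was seen in 4 of 28 members (Sdc3, Extl2, Ndst1 and Hs2st1), against 8.80% of all genes, and no gene was called for it. The dye term of Hs3st6 was -0.13 ± 0.12 and that of Sdc2 was 0.10 ± 0.08.

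**Figure D4:**
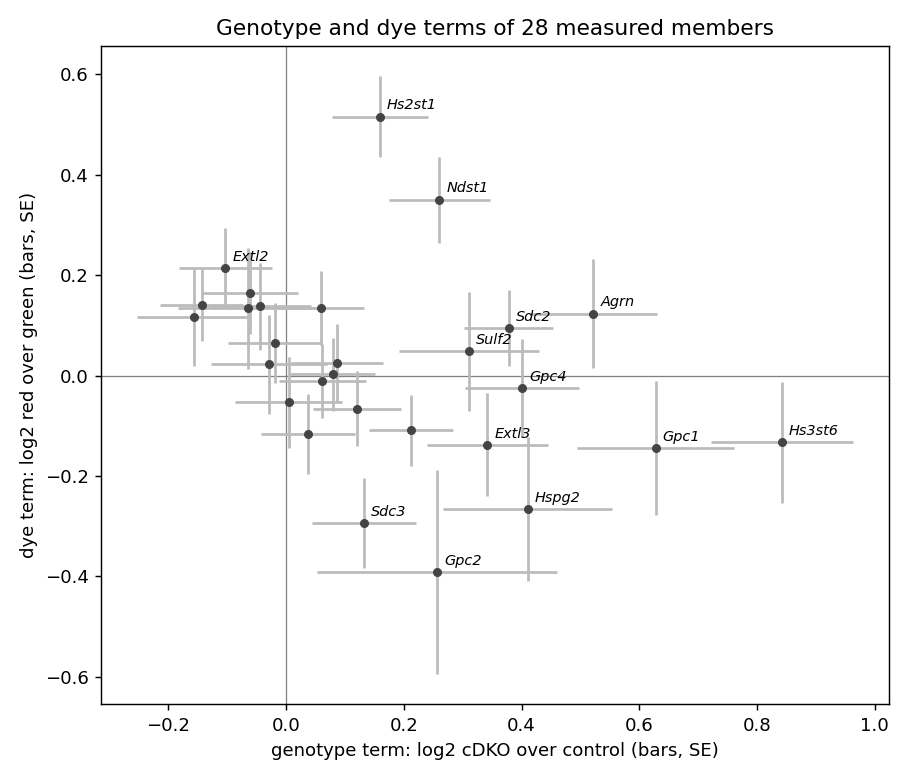
Genotype term (log2 cDKO over control, horizontal axis) and dye term (log2 red over green, vertical axis) of the 28 measured members, 1 point per gene with SE bars; genes with a dye term beyond 0.2 or a genotype term beyond 0.3 in size are named. Hs2st1 has the highest dye term, 0.52, at a genotype term of 0.16; Hs3st6 has a genotype term of 0.84 and a dye term of -0.13.

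For 7 members more than 1 probe was well above background. In 6 of them (Gpc3, Gpc5, Hspg2, Agrn, Ndst1 and Sulf1) all kept probes lay on the same side of 0. The probes of Hspg2 gave 0.41 and 0.46, and both had their lowest value on replicate 3. The dimmer Agrn probe gave 0.19 ± 0.09, against 0.52 for the brighter, and was below 0 on replicate 3. The 3 Ndst1 probes ran from 0.05 to 0.26. The dimmer Sulf1 probe gave -0.25 ± 0.15, against -0.03 for the brighter, so the size of that value also depends on the probe. Hpse split: the brighter of the probes printed above gave 0.12, 0.12, 0.05 and 0.03, all above 0, and the dimmer gave -0.34, -0.39, -0.24 and -0.18, all below 0, with a mean of -0.29 ± 0.08 and an adjusted p over probes of 0.142. In the fit over probes neither passed the test, Hs3st6 had an adjusted p of 0.0504, just short of it, and 0.594% of the 25591 kept probes were called.

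**Figure D5:**
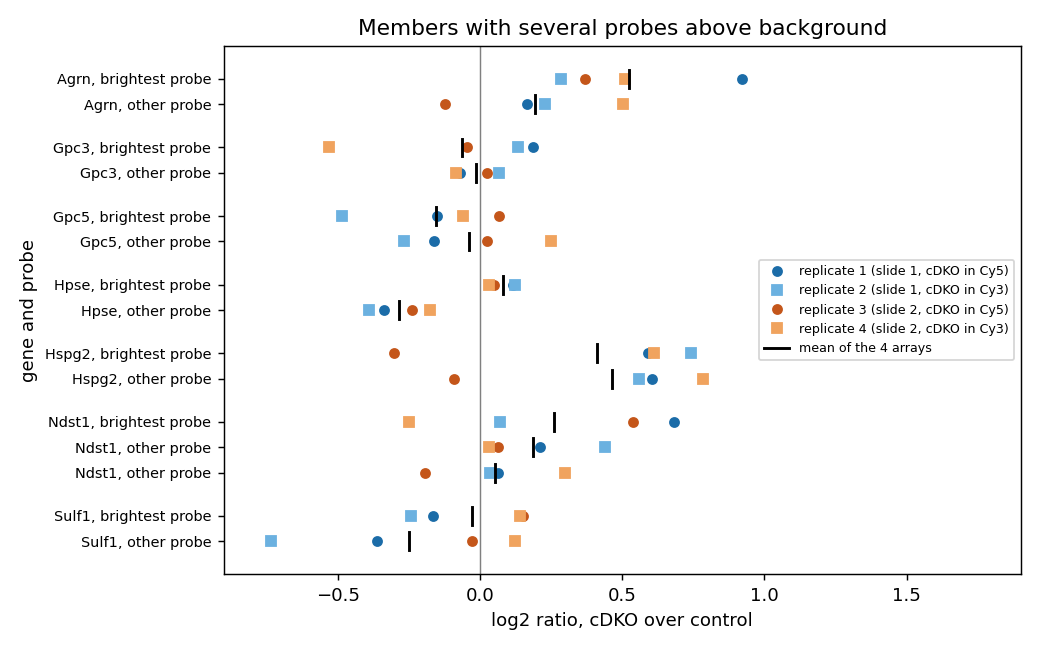
Log2 ratio of cDKO over control (horizontal axis) on each array for every kept probe of the 7 members with several (vertical axis), with a black bar at the mean of the 4 arrays. The probes of Hpse lie on opposite sides of 0 on every array, at means of 0.08 and -0.29, while those of Hspg2 are at 0.41 and 0.46.

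Genes that act before, beside and after the set were read from lists written by hand. Beside the counts below, 0.852% of all genes were called and 19.6% had an unadjusted p under 0.05 in the limma fit. Of 12 genes for the linker and the sugar and sulfate donors, 0 were called and 1 had an unadjusted p under 0.05: Fam20b, the kinase of the linker xylose, at 0.28 ± 0.08 (adjusted p = 0.139). B3gat3, which completes the linker, gave -0.17 ± 0.08 (adjusted p = 0.286). Of 15 measured genes for chondroitin and dermatan sulfate, the related chains that share this linker, 0 were called. An unadjusted p under 0.05 was seen in 3 (20%, near the share of all genes), all higher in the cDKO. Among them Ust, a 2-O-sulfotransferase, gave 0.41 ± 0.09 (adjusted p = 0.0953) and Chst11, a 4-O-sulfotransferase, 0.38 ± 0.09 (adjusted p = 0.0999). The 8 lysosomal enzymes of chain breakdown had a median of 0.10 and 0 calls; Ids gave 0.21 ± 0.08 (adjusted p = 0.231). Of 9 measured genes among other carriers and modifiers, 0 were called, and 4 had an unadjusted p under 0.05, 2 in each direction. The 2 higher were Col18a1 and Hs3st4, given above. The 2 lower were Srgn at -0.40 ± 0.11 (adjusted p = 0.130) and Nrp1 at -0.27 ± 0.08 (adjusted p = 0.146). Of the 9 means, 3 were above 0 and 6 below, with a median of -0.04.

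Ligands that bind heparan sulfate had 1 call in each direction, beside 0.553% of all genes called higher and 0.3% called lower. Of 13 measured, 1 rose, 1 fell, and the median was -0.04. Fgf9, an FGF ligand, rose (0.93, 0.72, 1.06 and 0.65; mean 0.84 ± 0.07, adjusted p = 0.0213). Ptn, the heparin-binding growth factor pleiotrophin, fell by 0.86 on the log2 scale (SE 0.08, adjusted p = 0.0264), with ratios of -0.71, -0.79, -0.92 and -1.03. With a sex term in the fit, neither call held (adjusted p of 0.0638 for Fgf9 and 0.0778 for Ptn).

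Markers of cell types are given here because the members are read from whole ureters. In each list 0 to 2 markers were called, beside 0.852% of all genes. Of 8 markers of ureteric mesenchyme, 7 had a mean above 0 and 1 was called, Ptch1 at 0.55 ± 0.07 (adjusted p = 0.0401); their median was 0.42, and their summed level was 16.62 to 16.87 in cDKO channels and 16.28 to 16.67 in control channels. That list includes Tbx18, the cre locus, and Bmp4, which is also among the ligands. A summed level adds the unlogged channel levels of a list, so the brightest probes dominate it and it is no amount of cells. Of 7 erythroid markers, 7 were below 0 and 2 fell, with a median of -0.33 and a summed level of 18.22 to 18.73 against 18.64 to 18.98. Of 8 endothelial markers, 7 were below 0 and 1 fell (median -0.32, summed level 14.49 to 14.77 against 14.67 to 15.10). Of 7 macrophage and leukocyte markers, 6 were below 0 and 1 fell (median -0.24, 13.60 to 13.91 against 14.03 to 14.19). Mesothelial markers numbered 4, with 3 below 0 and 1 that fell (median -0.35, 13.10 to 13.79 against 12.98 to 13.57). That sum was dominated by Wt1, the 1 marker above 0 (0.26 ± 0.14, adjusted p = 0.354 in the limma fit). Of 13 urothelial markers, 9 were below 0 and 1 fell, Upk1b, with a median of -0.05 (17.40 to 17.79 against 17.49 to 17.65). Smooth muscle, neural and kidney epithelial markers had medians of 0.05, -0.02 and 0.11 and 0 calls. With a sex term in the fit none of the marker calls held, Ptch1 for example at an adjusted p of 0.117. All listed markers of urothelium, mesenchyme and smooth muscle were well above background. Their part in the ratios of the members was not tested.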

How the data were processed

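Per the labels' protocols, total RNA was extracted, and 150 ng of it was amplified and labelled for each channel of 4 two-colour Agilent arrays. Per the file headers, Agilent Feature Extraction 10.7.3.1 quantified the scans, and coordinates are in build mm9. In the deposited scanner files are the mean spot and median local background intensity per channel, not normalized, besides processed intensity and log10 ratios of red over green made by the scanner software. The authors' deposited value table holds a score, a signed fold whose centring the sources used here do not state; its correlation with log red over green was 0.945, -0.935, 0.909 and -0.91 on replicates 1 to 4, so a positive sign means a higher cDKO signal. Each of its columns has a median of 1.

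Background correction used normexp (offset 50) and normalization used loess within arrays (span 0.3), with no weight for control and outlier spots. The 4 spots of a probe were averaged. Probes needed 3 or more of these spots well above background, on every array, in the channel of 1 genotype, and the brightest kept probe stood for a gene. Channel levels were scaled between arrays on mean intensity (Aquantile). The fit used limma 3.58.1 under R 4.3.3, with dye and genotype terms, 2 residual degrees of freedom and 4.53 of the prior; tests were two-sided. The fit was checked before use on simulated arrays of 19365 genes, with known changes in some of them. Noise there was drawn independently for each array, with variances from the prior that limma had fitted to these data. The check therefore does not cover slide or sex differences. It cannot show whether the limma model holds for these arrays, and it lends no weight to a call. The number of arrays, 4, limits the precision.

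Values by array are given for the called member and the measured members with the smallest p, 12 in all; Sdc3 and Hpse are also given by array, chosen after their values were seen; the targeted genes and up to 4 called, or else the 2 smallest-p, genes of each other pathway list are named besides. For 1 of these genes the value is not reported here. Srgn and Nrp1 were named after their values were seen. Members and lists were chosen with earlier results of these data known. Alternatives were a slide or sex term, no dye term, each slide alone, each replicate left out, median centring, processed signals, other filters, the mean of probes, and the deposited values.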

Additional observations from a re-analysis of the deposited data

Results flagged for a closer look

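In 2 of the 28 measured members, 1 array lay further from the other 3 than Dixon's test allows for 4 values, beside 4.97% of all 19365 genes; chance flags about 1 in 20 groups. Gpc2 had a log2 ratio of 1.34 on replicate 4, and the nearest other array was at -0.04. Its control level was 8.24 on that array and 9.50 to 9.77 on the others, while its cDKO levels were 9.32 to 9.73 on all 4; Gpc2 was read by 1 probe. Hspg2 had a log2 ratio of -0.30 on replicate 3, and the nearest other array was at 0.59. Its control level on that array was 14.36, against 13.25 to 13.75 on the others, and its second probe was also lowest there, at -0.09.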

How the results depend on the processing

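The median of the members stayed between 0.07 and 0.12 under all 15 alternatives, and none of the 12 members given by array changed direction. In this balanced layout a slide term, a sex term or no dye term cannot change a ratio, so those settings say nothing about its stability. The 12 members were also picked for the smallest p. The number of members called, 1 in the fit reported, was 9 with a slide term, 0 with a sex term, 3 on slide 1 alone and 0 on slide 2 alone, and 0 to 3 when a replicate was left out. It was 0 with the scanner's processed signals (1.11% of all genes called) and with the authors' deposited values (1.11%). With no filter on dim probes it was 0 of 34 members (0.00335% of all genes). Members at an unadjusted p under 0.05, 10 in the fit reported (19.6% of all genes), were counted under the alternatives after seeing the data. They numbered 4 on slide 2 alone (6.95% of all genes) and 6 with median centring (6.65%). When a replicate was left out they numbered 5 to 12 (8.48% to 23.3%). They numbered 8 with a sex term (13.9%), 9 with processed signals (18.5%), 9 with no filter (16.2%) and 10 with the deposited values (18.4%). All genes called numbered 165 in the fit reported, 2418 with a slide term, 2 with a sex term and 258 without a dye term. The number was 551 and 0 on slides 1 and 2, and 34 to 403 when a replicate was left out. It was 255 with median centring, 1 with no filter, 214 with processed signals and 214 with the deposited values. Hs3st6 kept a log2 ratio of 0.67 to 1.01, and its call was lost in 8 of 15 alternatives, with adjusted p of 0.0821 with a sex term, 0.341 on slide 2, 0.0527 with processed signals, 0.125 with no filter and 0.0511 with the deposited values; it was 0.0504 in the fit over probes. The cause was not tested. Differences between slides and sex labels, which gave 0 members by limma, were also computed under 5 alternatives chosen after seeing the data, again with 0 members. Every ratio is a difference within an array, so the fit is already paired by replicate and no further block was added. Signal over background limits 6 members, which have no ratio.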
